A study of Mus musculus with 4 samples.

Results

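The receptors for the colony-stimulating factors, for interleukin 3 and for Flt3 ligand were described in mouse liver cells across cell classes and 2 diets. The group holds 7 receptor genes (Csf1r, Csf2ra, Csf2rb, Csf2rb2, Csf3r, Il3ra and Flt3) and 1 ligand gene (Csf1). The 8 genes were taken by symbol, and each was found among the 27998 genes counted in all 4 libraries. Liver cells came from male wild-type C57BL/6 mice obtained at 8 weeks of age and then kept for 6 weeks on a normal control diet (NCD) or a diet deficient in methionine and choline (MCD), which in mice produces a fatty, inflamed liver. The sort took living (7AAD-) CD45+ Ly6G- cells with intermediate CD11b. Its F4/80 gate is given as low in the series text and as high in the sample labels. Each diet had 2 droplet libraries of 3′ transcript ends, and it is not given whether a library holds 1 mouse or several, so p-values measure a spread between libraries that may be technical. No label gives a preparation batch, and diet and batch cannot be told apart.

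Csf1r is the receptor tyrosine kinase through which CSF1 and interleukin 34 keep monocytes and macrophages alive and drive their maturation. Flt3 is a related kinase that sustains dendritic cells and their precursors. The receptors for GM-CSF and interleukin 3 each pair a ligand-specific alpha chain (Csf2ra, Il3ra) with the shared beta chain Csf2rb, mice carry an additional interleukin 3-specific beta chain (Csf2rb2), and Csf3r is the receptor for G-CSF, best known from neutrophils. In the liver, CSF1 maintains resident and recruited macrophages.

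Start regions are printed for an alpha chain, a beta chain and the G-CSF receptor. In the pooled monocytes and macrophages described below, their log2 differences (MCD over NCD) were 0.51 ± 0.10, 0.54 ± 0.21 and 0.08 ± 0.12 (SE). Of these only the first passed the test. Each run covers 250 bases before and 50 after the annotated start (RefSeq, GRCm38.p6), 5′ to 3′ on the gene's own strand. Capitals mark the letters GAGGAA or their reverse complement TTCCTC, a core bound by the myeloid factor PU.1. Csf2ra lies at chr19:61228369-61228668 on the minus strand, Csf2rb2 at chr15:78305672-78305971 on the minus strand and Csf3r at chr4:126024409-126024708 on the plus strand.
Csf2ra: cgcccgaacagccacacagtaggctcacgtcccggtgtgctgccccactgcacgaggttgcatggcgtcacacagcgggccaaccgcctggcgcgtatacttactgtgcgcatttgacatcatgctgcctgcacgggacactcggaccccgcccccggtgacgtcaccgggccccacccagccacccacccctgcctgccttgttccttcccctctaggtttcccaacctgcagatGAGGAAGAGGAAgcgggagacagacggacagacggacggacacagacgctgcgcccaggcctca
Csf2rb2: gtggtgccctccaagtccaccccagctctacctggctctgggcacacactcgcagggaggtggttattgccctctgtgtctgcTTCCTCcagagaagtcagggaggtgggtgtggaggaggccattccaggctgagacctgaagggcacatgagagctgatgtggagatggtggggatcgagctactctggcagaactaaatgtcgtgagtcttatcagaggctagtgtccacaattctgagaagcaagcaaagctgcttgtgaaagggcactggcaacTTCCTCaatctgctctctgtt
Csf3r: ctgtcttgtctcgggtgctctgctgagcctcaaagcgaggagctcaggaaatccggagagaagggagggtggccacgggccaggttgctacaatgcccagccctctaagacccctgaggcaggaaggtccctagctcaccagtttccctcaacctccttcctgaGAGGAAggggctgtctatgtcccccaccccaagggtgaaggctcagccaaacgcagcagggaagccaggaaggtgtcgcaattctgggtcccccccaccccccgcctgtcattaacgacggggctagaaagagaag
The motif was searched on both strands. It was found 2 times in the Csf2ra window, 2 times in that of Csf2rb2 and 1 time in that of Csf3r, and 28.3% of 32851 promoter windows of this length hold it. The windows of Il3ra, Flt3 and Csf1 hold none. The sites of Csf2ra start 14 and 8 bases before the annotated start. The letters TTCNNNGAA, a core of STAT binding sites, were found 1 time, in the Csf2rb2 window, and in 8.30% of all windows. The start regions of Csf1r and Csf2rb are named only.

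The 2 beta chain genes are neighbours. Csf2rb lies at chr15:78325752-78353847 and Csf2rb2 at chr15:78282507-78305721 on the opposite strand (GRCm38), with 20030 bases between them. Of the 50-base windows of the Csf2rb transcript, 18.4% recur in Csf2rb2, but none of those in the last 1000 bases of either transcript, the end that these libraries read. Csf1r overlaps the oppositely directed gene Hmgxb3 and Flt3 overlaps Gm26597, and how strand was treated in counting is not stated. The other receptor genes are Csf1r at chr18:61100598-61132149, Csf2ra at chr19:61223957-61228429, Csf3r at chr4:126024550-126044440, Il3ra at chr14:14346275-14356011 and Flt3 at chr5:147330741-147400489. Csf1 lies at chr3:107741048-107760469.

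The libraries differed in depth by diet. They held 7518597 and 7428431 UMIs (counted transcript molecules) on NCD and 32975974 and 37772284 on MCD, and the kept cells had medians of 2173 and 2253.5 UMIs on NCD against 12038 and 12300 on MCD. Barcodes over the limit of 10% mitochondrial UMIs made up 37.2% and 33.6% on NCD and 11.6% and 9.44% on MCD. After filtering, 9609 cells remained, and pairs of libraries shared 1 to 8 barcode sequences. The sort genes Ptprc, Itgam and Adgre1 were detected in every library, and Ly6g had at most 0.0619 CPM (UMIs of a gene scaled to a common library total) over all cells. Clusters made without the 8 genes were named from marker lists. Those used most here are Ly6Chi-like monocytes (437 and 467 NCD cells, 692 and 828 MCD cells), Ly6Clo-like monocytes (160, 174, 166 and 224 cells in the same order) and C1q macrophages (248, 168, 361 and 282 cells). In each of these classes separate clusters held the cells of the 2 diets. The C1q macrophages were led by Retnla, Cxcl9 and Cxcl10 beside the C1q genes on NCD, and by Spp1, Gpnmb and Lpl beside them on MCD. In their main MCD cluster the C1q list and the lipid-associated macrophage list each had 6 markers among the top 50 genes. Among the top 10 they had 4 and 3. In the main NCD cluster the C1q list and the Kupffer cell list each had 5 among the top 50, and 3 and 0 among the top 10.

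Each receptor had its own place among the classes. Levels between classes are given as CPM of the summed UMIs of a class, as a description without a test. Csf1r was highest in Ly6Clo-like monocytes on NCD, at 494 and 599 CPM in the 2 libraries, followed by C1q macrophages at 391 and 429 and Ly6Chi-like monocytes at 315 and 370 CPM. On MCD the C1q macrophages came first, at 932 and 847 CPM, before an unnamed cluster led by Saa3 and Clec4e at 867 and 786 and the Ly6Clo-like monocytes at 803 and 767 CPM. The first and the second overlapped on MCD, as did the second and the third, while the 3 NCD classes did not overlap. In NK-like cells, which should lack it, Csf1r stood at 69.7 to 103 CPM in all 4 libraries. In the MCD libraries 12 of 15 and 13 of 14 of these UMIs lay in 1 cell. The source of these UMIs was not tested. Among the named classes Csf3r was highest in the Ly6Chi-like monocytes, with 81.9 and 67.4 CPM in NCD Ly6Chi-like cells and 107 and 108 CPM in MCD ones, while cDC2-like dendritic cells had 6.59 to 17.2 CPM. The unnamed MCD clusters led by Saa3 (103 and 112 CPM) and by Cxcl10 and Ifit3 (102 and 141 CPM) held as much Csf3r as the monocytes.

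The beta chains and Flt3 lay elsewhere. Csf2rb reached 626 and 420 CPM in the NCD basophil-like cells and 175 and 258 CPM in the NCD migratory dendritic-like cells, against 68.1 to 84.9 CPM in the NCD monocyte classes. The 3 and 6 MCD basophil-like cells held 1017 and 622 CPM of Csf2rb, from only 22 and 28 UMIs. On MCD the migratory dendritic-like cells held 439 and 497 CPM of Csf2rb. The unnamed cluster led by Cxcl10 and Ifit3 overlapped them with 557 and 338 CPM. Csf2rb2 had 134 and 181 CPM in NCD basophil-like cells, 131 and 0 in the 38 and 22 NCD migratory dendritic-like cells, and 172 and 153 CPM in the MCD ones. Flt3 was highest in migratory dendritic-like cells on both diets, at 230 and 219 CPM on NCD and 267 and 226 CPM on MCD, a mean of 224 ± 7.73 against 246 ± 28.8 (SD, n = 2 each). The cDC2-like cells came after them on MCD with 221 and 186 CPM, just under them, and had 59.3 and 113 CPM on NCD. An unnamed cluster led on NCD by Gm42418 and Nr4a1 held more Flt3 there, at 146 and 158 CPM from 10 and 9 UMIs. Another unnamed cluster, led by S100a9 and S100a8, had 161 CPM in MCD replicate 2. Il3ra was scarce, with 10.8 and 14.1 CPM in endothelial-like cells and 8.73 and 10.7 CPM in Ly6Chi-like monocytes on NCD. Endothelial-like cells, which a CD45+ sort should not hold, carried 243 to 444 CPM of Csf1r.

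**Figure D1:**
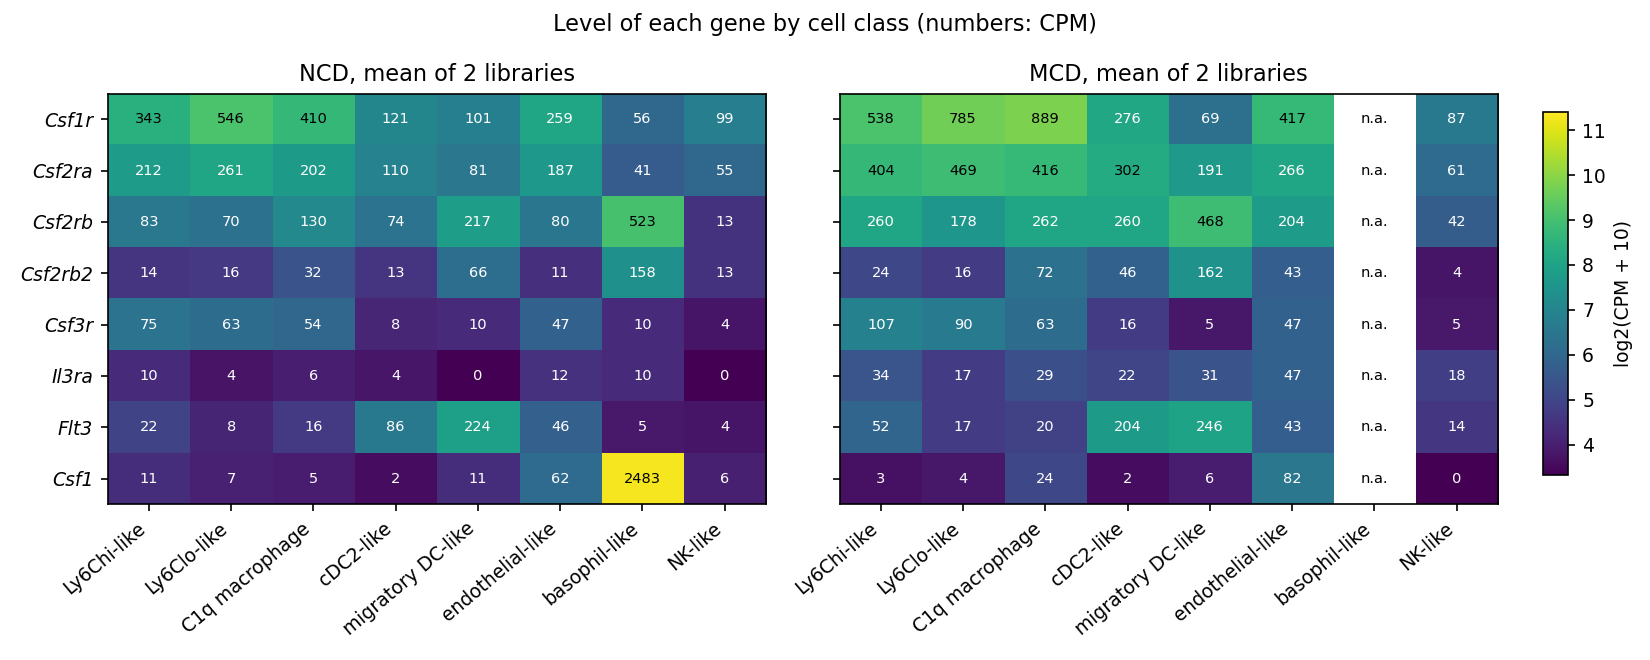
Mean level of each gene (CPM of summed UMIs, 2 libraries per diet) by cell class, NCD left and MCD right, with colour on a log2(CPM + 10) scale and n.a. where a class had fewer than 20 cells in a library. Csf1 stands at 2483 CPM in NCD basophil-like cells, Flt3 leads in migratory dendritic-like cells and Csf1r in Ly6Clo-like monocytes (NCD) or C1q macrophages (MCD).

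To ask how the diet moved these genes within monocytes and macrophages, UMIs were summed per library over the 3 classes above and compared with the edgeR quasi-likelihood test, adjusted by Benjamini-Hochberg over all tested genes. The values of these comparisons are normalised CPM, scaled by TMM, which keeps the median gene near its place: the median log2 difference over 10986 tested genes was 0.04, and it was 0.44 when library totals were used as the scale. Of the 8 genes, 5 rose on MCD and none fell, in a comparison in which 40.5% of all genes passed the threshold and 21.3% passed it with a higher level on MCD. The 8 genes had a median log2 difference of 0.53. The direction of Csf3r, Csf1 and Csf2rb2, which did not pass, turned under at least 1 other setting. Csf1 was called as lower, beside 4 members called higher, at Leiden resolution 0.5 (-1.99, adjusted p = 0.0016, edgeR) and when the C1q macrophages were left out (-2.02, adjusted p = 0.0019, edgeR). At resolution 0.5 no cell was named a C1q macrophage. The Ly6Clo-like class there held 160 and 170 NCD cells but 1 and 1 MCD cells. That setting therefore did not compare the same 3 classes between the diets. Thinning to 1000 UMIs per cell left 3 members called. Lipid-associated macrophage markers also moved with the diet in these sums, from 1213 and 1148 CPM on NCD to 4475 and 4124 CPM on MCD for 13 genes, of which 12 were detected on NCD (Atp6v0d2 was at 0) and 13 on MCD. Their part in the receptor differences was not tested.

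Of the 3 classes taken singly, Csf1r passed the test in the C1q macrophages. There it had 468 and 486 normalised CPM on NCD and 797 and 743 on MCD. Both MCD libraries lay above both NCD libraries, with a log2 difference of 0.69 ± 0.12 (SE, adjusted p = 0.0012 by edgeR's quasi-likelihood test), which passed under all 10 other settings tried in this class. Other clusterings and the looser mitochondrial limit were run on the pooled classes only. At Leiden resolution 0.5 no cell was named a C1q macrophage. With up to 20% mitochondrial UMIs, 4 and 1 NCD C1q macrophages stood against 340 and 271 MCD ones. In Ly6Chi-like monocytes the values were 388 and 429 on NCD and 459 and 445 on MCD, a log2 difference of 0.14 ± 0.11 that did not pass (adjusted p = 0.34, edgeR). The diets did not overlap here either, but the gap was smaller than the spread between the NCD libraries. In Ly6Clo-like monocytes Csf1r had 565 and 668 normalised CPM on NCD and 719 and 702 on MCD, with a log2 difference of 0.21 ± 0.12 (adjusted p = 0.208, edgeR). Over the 3 classes together the difference was 0.33 ± 0.09 (adjusted p = 0.0239, edgeR). That pooled call was lost when NCD replicate 1 or MCD replicate 1 was left out (adjusted p = 0.083 and 0.146, edgeR), when cells were thinned to 1000 UMIs (0.367), at Leiden resolution 0.5 (0.521) and when the C1q macrophages were left out (0.347). The thinned log2 difference was 0.15 and that at Leiden resolution 0.5, with the changed classes given above, was 0.083. With library totals as the scale Csf1r was called in both monocyte classes, at 0.65 in Ly6Chi-like and 0.53 in Ly6Clo-like cells (adjusted p = 0.0011 and 0.0022, edgeR), a shift close to that of the median gene.

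The share of cells with at least 1 Csf1r UMI was compared at an equal depth of 1000 UMIs per cell. Equal totals scale the cells as library totals do, without TMM, and on that scale the median gene was higher on MCD. These shares, and those given below for other genes, are not corrected for that shift. Among C1q macrophages it was 28.4% and 30.1% on NCD and 58.3% and 51.4% on MCD (69 of 243, 50 of 166, 210 of 360 and 145 of 282 cells). The exact 95% intervals, which cover counting error only, ran from 22.8% to 37.7% over the NCD libraries and from 45.4% to 63.5% over the MCD libraries. In Ly6Chi-like monocytes the shares were 27.2%, 29.8%, 43.9% and 37.6%, and in Ly6Clo-like monocytes 45.0%, 47.7%, 58.4% and 47.8%. In the last class an MCD library lay at the level of an NCD library. NK-like cells, which should lack Csf1r, had 8.11%, 6.56%, 3.33% and 4.17%, with median depths before thinning of 1401, 1211, 6365.5 and 5428 UMIs. Without thinning, the C1q macrophages showed 53.6% and 57.7% on NCD and 99.2% and 99.3% on MCD, at median depths of 2332.5 and 2222 against 15029 and 14775 UMIs.

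**Figure D2:**
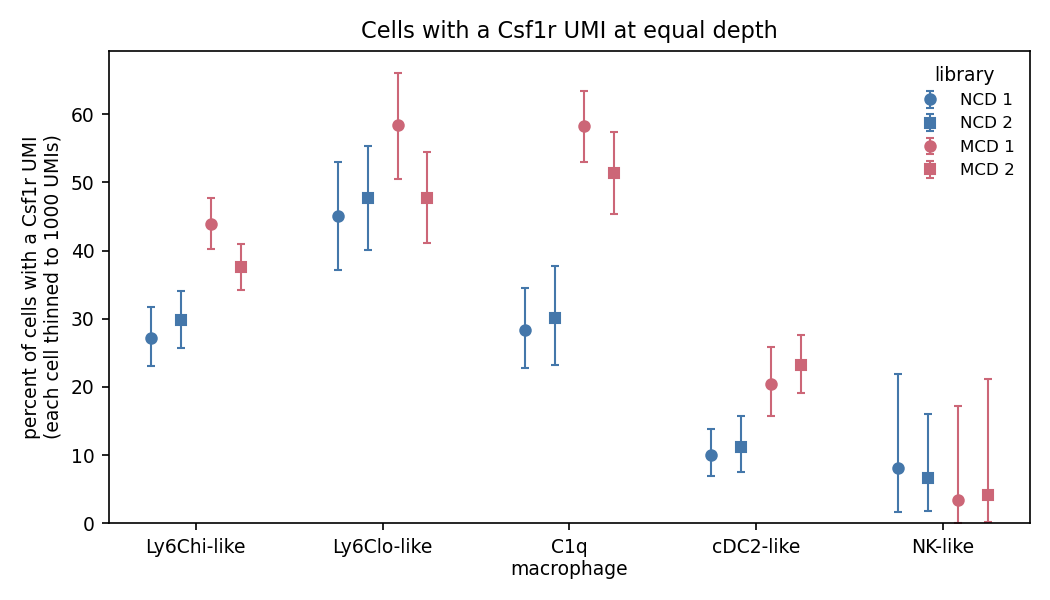
Percent of cells with a Csf1r UMI after thinning each cell to 1000 UMIs (without TMM scaling), by cell class and library, with exact 95% intervals as bars. The C1q macrophages moved from 28.4% and 30.1% on NCD to 58.3% and 51.4% on MCD, and the NK-like cells lay at 3.33% to 8.11%.

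Csf2rb, the signalling chain shared by the GM-CSF, interleukin 3 and interleukin 5 receptors, rose in every one of the 3 classes. In Ly6Chi-like monocytes it had 101 and 98.5 normalised CPM on NCD and 222 and 214 on MCD. This is a log2 difference of 1.13 ± 0.13 (adjusted p = 4.15e-05, edgeR), or 2.19-fold. The spread within each diet was far smaller than the gap between them. In Ly6Clo-like monocytes the values were 82.8 and 75.9 against 154 and 169 (1.03 ± 0.19), and in C1q macrophages 149 and 153 against 230 and 223 (0.59 ± 0.14, adjusted p = 0.0081, edgeR; 0.0619 without NCD replicate 1). C1q macrophages had the highest NCD level of the 3 classes and the smallest log2 difference. At 1000 UMIs per cell, 8.47% and 7.71% of NCD Ly6Chi-like monocytes and 22.1% and 20.8% of MCD ones had a Csf2rb UMI, against 0.00% and 0.00% of NCD and 3.33% and 4.17% of MCD NK-like cells. The pooled difference over the 3 classes, 1.02 ± 0.10, passed under all 15 other settings.

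Csf2ra, the GM-CSF alpha chain, rose by less. Its normalised CPM in the 3 classes together was 252 and 258 on NCD and 343 and 385 on MCD, a log2 difference of 0.51 ± 0.10 (adjusted p = 0.0044, edgeR) that passed under all 15 other settings. The diets did not overlap in any of the 3 classes. By class the difference was 0.43 ± 0.12 in Ly6Chi-like monocytes, 0.53 ± 0.14 in Ly6Clo-like monocytes and 0.60 ± 0.14 in C1q macrophages (adjusted p = 0.0167, 0.0075 and 0.0059, edgeR). The calls in the 2 monocyte classes were lost when NCD replicate 1, NCD replicate 2 or MCD replicate 2 was left out (adjusted p from 0.0547 to 0.116, edgeR) and with thinned cells (0.0838 and 0.0876). DESeq2 did not call it in Ly6Clo-like monocytes (0.0552).

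Il3ra, the interleukin 3 alpha chain, rose from a low level. Over the 3 classes it had 13 and 16 UMIs on NCD and 506 and 555 on MCD, or 7.46 and 9.62 normalised CPM against 25.3 and 27.0. The log2 difference was 1.62 ± 0.20 (adjusted p = 0.000584, edgeR), or 3.07-fold, and it passed under all 15 other settings. The MCD values lay close together and the NCD values rest on few counts. In Ly6Chi-like monocytes the values were 10.7 and 12.5 against 27.8 and 29.1 (1.28 ± 0.26, adjusted p = 0.0032, edgeR). In C1q macrophages 5 and 2 UMIs stood against 153 and 148 (1.75 ± 0.43, adjusted p = 0.0105, edgeR; 0.0769 and 0.0891 without NCD replicate 1 or NCD replicate 2, and 0.0562 by DESeq2). In Ly6Clo-like monocytes the NCD libraries held 0 and 3 UMIs and the MCD libraries 35 and 51, and the call there (adjusted p = 0.0439, edgeR) became 0.405 without NCD replicate 1.

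Csf2rb2, the interleukin 3-specific beta chain, passed the test in C1q macrophages, where it had 38.1 and 37.0 normalised CPM on NCD and 63.0 and 60.8 on MCD (0.72 ± 0.22, adjusted p = 0.0267, edgeR). The diets were clearly apart, but the call was lost without NCD replicate 1, NCD replicate 2 or MCD replicate 1 (adjusted p = 0.123, 0.0912 and 0.065, edgeR), with thinned cells (0.627) and by DESeq2 (0.156). In Ly6Chi-like monocytes 21.5 and 11.3 stood against 21.7 and 18.6 normalised CPM, and in Ly6Clo-like monocytes 19.5 and 15.7 against 17.2 and 12.4. The diets overlapped in both. The diet difference in C1q macrophages did not differ from that in Ly6Chi-like monocytes beyond its error (0.42 ± 0.40, adjusted p = 0.742, edgeR). With library totals as the scale Csf2rb2 was called in Ly6Chi-like monocytes (0.83, adjusted p = 0.0447, edgeR).

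Csf3r, the receptor for G-CSF, showed no difference that passed in any of the 3 classes with TMM scaling. In Ly6Chi-like monocytes, where it was most abundant of the 3, it had 101 and 78.1 normalised CPM on NCD and 88.5 and 92.2 on MCD, with the MCD libraries lying between the NCD libraries (0.02 ± 0.15, adjusted p = 0.92, edgeR). The Ly6Clo-like monocytes had 68.2 and 73.3 against 76.2 and 86.7, without overlap, and the C1q macrophages 59.9 and 66.0 against 48.6 and 60.8, with overlap. The pooled log2 difference was 0.08 ± 0.12 (adjusted p = 0.624, edgeR). It became 0.48 when library totals were the scale (adjusted p = 0.0085, edgeR), and in Ly6Chi-like monocytes 0.53 (adjusted p = 0.0151, edgeR), where the median gene moved from 0.05 to 0.55.

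Flt3 rose in Ly6Chi-like monocytes. There it had 29.6 and 22.6 normalised CPM on NCD and 42.7 and 44.3 on MCD, with no overlap between the diets (0.75 ± 0.21, adjusted p = 0.0162, edgeR; 0.156 without NCD replicate 2, 0.168 with thinned cells and 0.0793 by DESeq2). Over the 3 classes together it had 20.7 and 18.0 against 30.2 and 34.7 (0.74 ± 0.17, adjusted p = 0.01, edgeR; 0.0744 without NCD replicate 2 and 0.258 with thinned cells). The share of Ly6Chi-like cells with a Flt3 UMI at 1000 UMIs was 2.52% and 2.14% on NCD and 5.35% and 5.31% on MCD, beside 0.00% and 0.00% on NCD and 6.67% and 0.00% on MCD in NK-like cells, where the 6.67% is 2 of 30 cells. In C1q macrophages Flt3 had 18.2 and 18.5 against 12.3 and 23.0 normalised CPM, so that the MCD libraries lay on both sides of the NCD ones. In the cDC2-like cells, dendritic cells for which Flt3 ligand is a growth factor, the values were 77.8 and 136 on NCD and 177 and 149 on MCD (0.63 ± 0.21, adjusted p = 0.0352, edgeR; 0.346 without NCD replicate 1, 0.0746 without MCD replicate 1 and 0.0947 by DESeq2). In migratory dendritic-like cells 267 and 217 stood against 259 and 226, with overlapping diets (-0.03 ± 0.28).

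**Figure D3:**
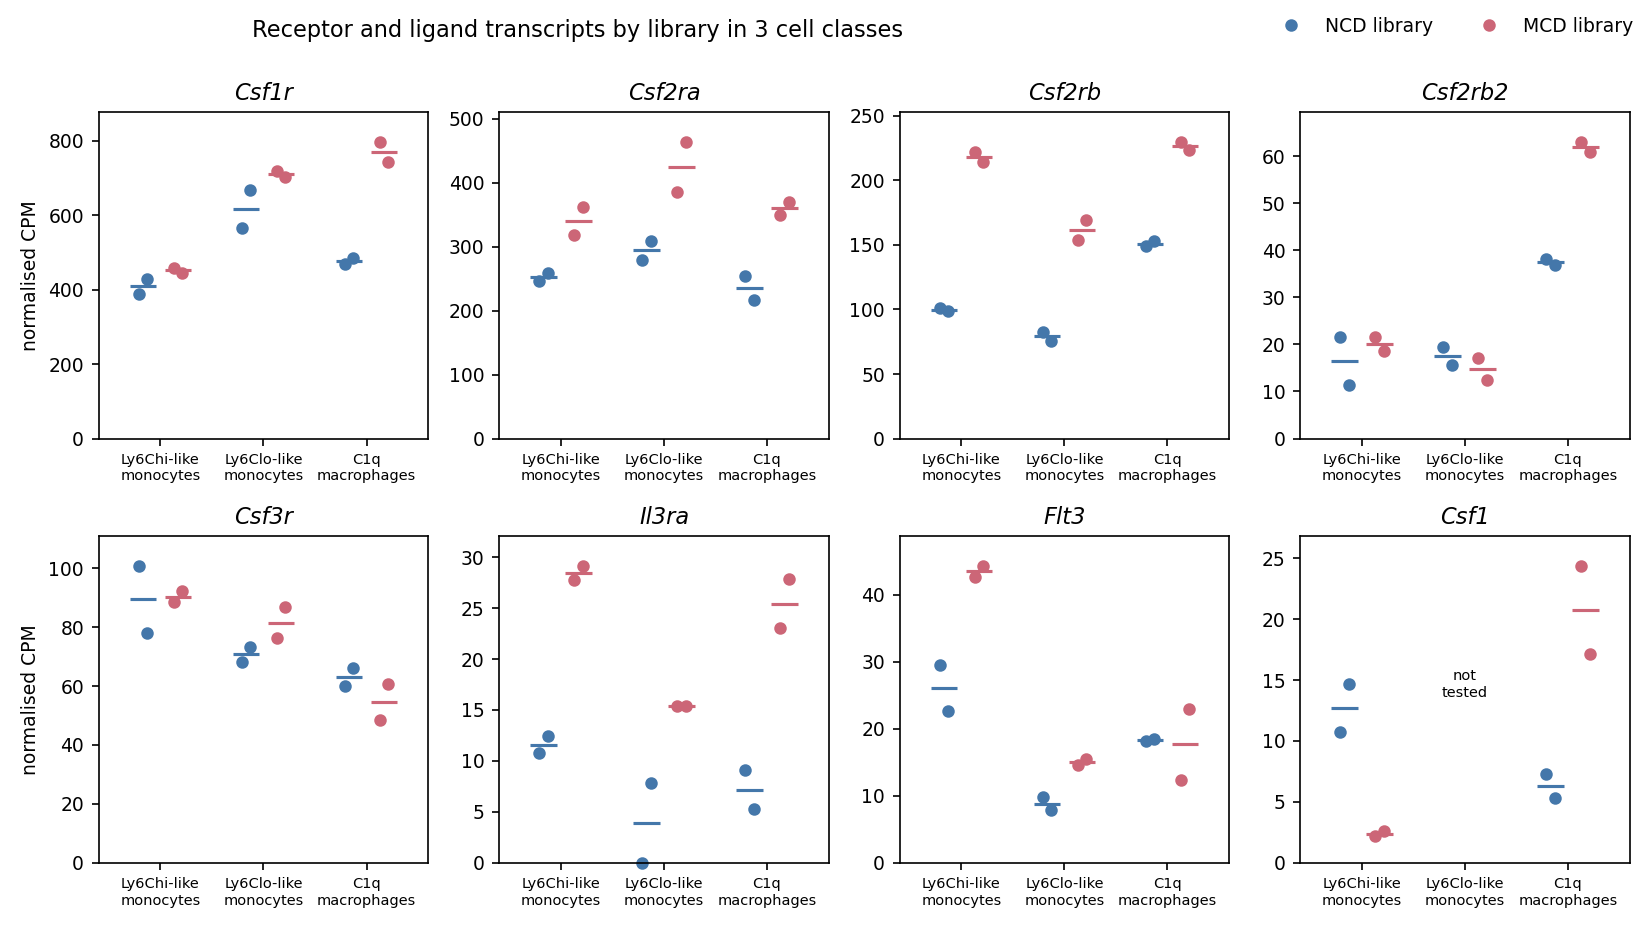
Normalised CPM of the 8 genes in each library (points) with the mean of the 2 libraries per diet (lines), in 3 cell classes; each panel has its own axis from 0. Csf2rb, Csf2ra and Il3ra are higher in both MCD libraries of every class, the diets overlap for Csf3r in 2 of the 3 classes, and Csf1 moves in opposite directions in Ly6Chi-like monocytes and C1q macrophages.

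Csf1, the ligand of Csf1r, came mostly from other cells than the monocytes. Basophil-like cells held 2371 and 2594 CPM of it on NCD, with a UMI in 26 of 34 and 67 of 73 cells. They were 1.96% and 4.09% of the cells of their libraries and held 54.1% and 62.2% of the Csf1 UMIs. The MCD libraries had only 3 and 6 basophil-like cells, and these held 1757 and 2976 CPM. On MCD the Csf1 UMIs were spread over endothelial-like cells (17.6% and 34.02%), an unnamed cluster led by Retnlg, G0s2 and Ccr3 (36.5% and 15.3%), C1q macrophages (25.4% and 14.5%) and basophil-like cells (5.96% and 21.3%). The leading genes of that cluster on MCD also held Hbb-bs, Hba-a1, Hba-a2 and Hbb-bt. The marker rule matched its MCD cells to the erythroid list, with 4 markers among the top 50 genes and 4 among the top 10. The eosinophil list had 4 and 1 there. In its NCD cells the eosinophil and neutrophil lists tied, each with 3 among the top 50 and 2 among the top 10. The cluster was kept as unnamed. Its MCD cells had median depths of 1313 and 1216 UMIs. Whether it holds several cell types was not tested. Endothelial-like cells held 48.4 and 74.6 CPM on NCD and 90.8 and 73.3 CPM on MCD. Over all retained cells Csf1 fell, from 43.0 and 83.9 normalised CPM on NCD to 18.9 and 16.3 on MCD (-1.85 ± 0.29, adjusted p = 0.0031, edgeR; 0.0671 with thinned cells). In such sums over all cells, a change in the mix of classes and a change within cells cannot be told apart.

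**Figure D4:**
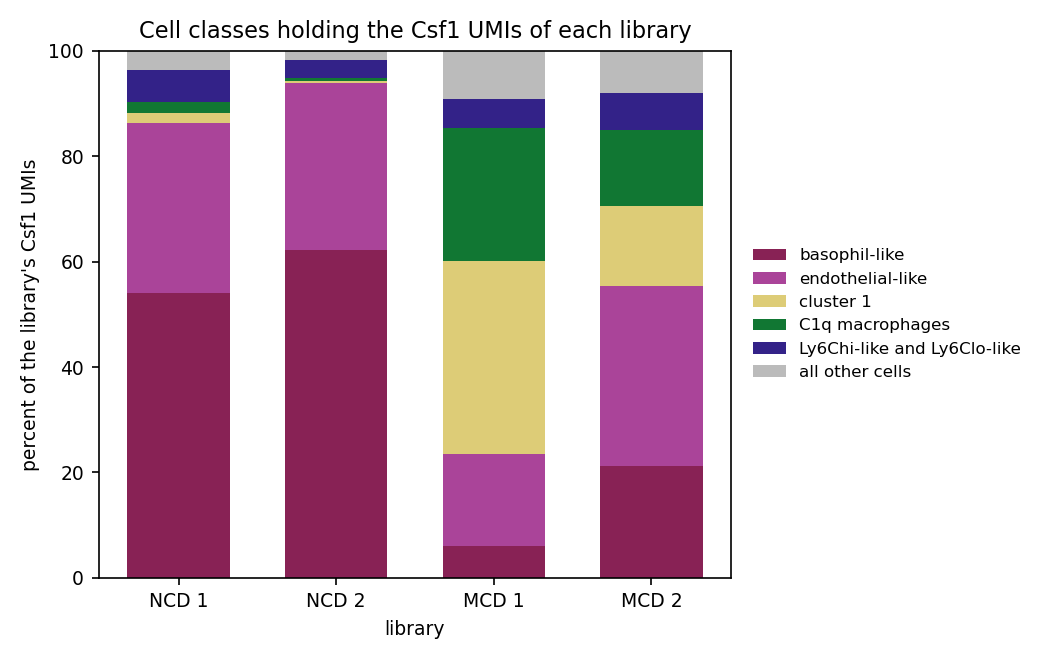
Percent of the Csf1 UMIs of each library that lay in each cell class (stacked to 100%). Basophil-like cells held 54.1% and 62.2% in the NCD libraries and 5.96% and 21.3% in the MCD libraries.

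Within the myeloid classes Csf1 moved in opposite directions. In Ly6Chi-like monocytes it fell, from 8 and 13 UMIs on NCD to 25 and 32 on MCD at a far greater depth, or from 10.7 and 14.7 normalised CPM to 2.18 and 2.62 (-2.41 ± 0.43, adjusted p = 0.0014, edgeR; 0.0612 without NCD replicate 2). The 10 basophil markers summed to 48.0 and 43.0 CPM in the NCD and 14.5 and 17.8 CPM in the MCD libraries of this class, with 2 to 5 of the 10 detected per library and Fcer1a, Ms4a2, Cd200r3 and Prss34 at 0 in all 4. Their part in the fall of Csf1 was not tested. In C1q macrophages Csf1 rose, from 4 and 2 UMIs to 162 and 91, or from 7.26 and 5.28 to 24.4 and 17.1 normalised CPM (1.69 ± 0.51, adjusted p = 0.0276, edgeR). The MCD UMIs lay in 43 of 361 and 38 of 282 cells, and single cells held up to 24 and 30 of them. Leaving out NCD replicate 1, NCD replicate 2 or MCD replicate 1 ended the call (adjusted p = 0.184, 0.172 and 0.116, edgeR), and DESeq2 did not make it (0.109). Eosinophil markers stood at 45.4 and 83.9 CPM in the NCD and 210 and 173 CPM in the MCD libraries of this class, with 3 and 2 of 10 detected on NCD and 6 and 6 on MCD, and Epx, Prg2, Ear1 and Ear6 at 0 in all 4. Their part in this rise was not tested.

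Whether the diet acted differently in different classes was tested with a class by diet term, with the library as a block. Between Ly6Chi-like and Ly6Clo-like monocytes none of the 8 genes passed in edgeR's quasi-likelihood test, in a test that called 4.02% of 8467 genes, with 3.25% higher and 0.768% lower in the Ly6Clo-like cells. None had an unadjusted p under the threshold. DESeq2 gave an adjusted p for 4 of the 8 and called none, also none at an unadjusted p under the threshold. Between C1q macrophages and Ly6Chi-like monocytes, a comparison added after seeing the data, 2 of the 8 passed while 3.19% of 9753 genes did (1.29% higher and 1.9% lower in the C1q macrophages). These were Csf1r, whose diet difference was greater in the C1q macrophages by 0.52 ± 0.12 on the log2 scale (adjusted p = 0.0086), and Csf1, by 4.03 ± 0.66 (adjusted p = 0.00036). Csf2rb differed the other way, by -0.57 ± 0.18, and did not pass (adjusted p = 0.094). Leaving out NCD replicate 1 or NCD replicate 2 ended both calls (adjusted p from 0.0715 to 0.123, edgeR).

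**Figure D5:**
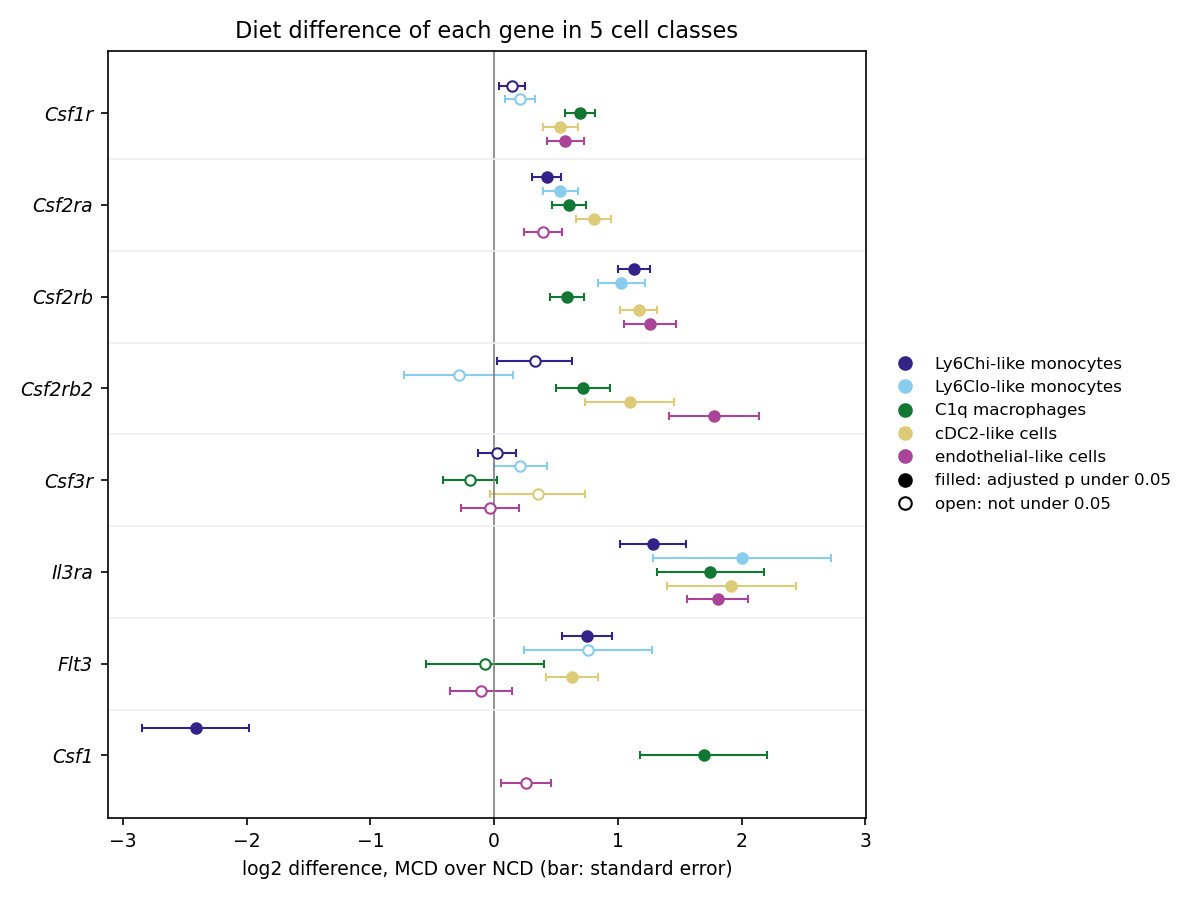
Log2 difference (MCD over NCD) of each gene with its standard error in 5 cell classes; filled points passed an adjusted p of 0.05 (edgeR). Csf2rb and Il3ra are filled in all 5 classes and Csf3r in none (with TMM scaling), and a gene without a point in a class was too low to be tested.

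Counts of called genes by class were read against the share of all genes called, in either direction unless named. The shares called higher on MCD were 15.5% in Ly6Chi-like monocytes, 14.6% in Ly6Clo-like monocytes and 13.8% in C1q macrophages. They were 14.7% in cDC2-like cells, 16.5% in endothelial-like cells and 26.1% over all retained cells. The shares called lower were 14.9% in Ly6Chi-like monocytes and 22.9% over all retained cells. In Ly6Chi-like monocytes 4 of the 8 rose and 1 fell (30.5% of all genes called), with a median log2 difference of 0.38 against 0.05 over all tested genes. In Ly6Clo-like monocytes 3 of 7 tested rose (27.9%), and in C1q macrophages 6 of 8 rose (27.6%). These counts varied with single libraries. In Ly6Chi-like monocytes 2 of the 8 were called without NCD replicate 2. In Ly6Clo-like monocytes 1 was called without NCD replicate 1 or MCD replicate 2, 2 without either of the other libraries, and 1 by DESeq2. In C1q macrophages 2 were called without NCD replicate 1, 3 without NCD replicate 2, 4 without MCD replicate 1 and 3 by DESeq2. In cDC2-like cells 6 of 7 rose (29.4%), Csf1r among them at 161 and 143 against 220 and 222 normalised CPM (0.53 ± 0.14, adjusted p = 0.0114, edgeR). This Csf1r call ended under 2 other settings, among them leaving out NCD replicate 2. DESeq2 called 3 of the 7, without Csf2rb2, Il3ra and Flt3, and 4 were called without NCD replicate 1, NCD replicate 2 or MCD replicate 1. Migratory dendritic markers in these cDC2-like sums went from 243 and 164 CPM on NCD, with 9 of 12 detected, to 673 and 655 CPM on MCD, with 12 of 12 detected; their part was not tested. In migratory dendritic-like cells 2 of 6 tested rose (9.03%; 5.23% higher and 3.8% lower), Csf2rb by 1.03 ± 0.27 and Csf2ra by 1.28 ± 0.41. Both of those calls were lost without NCD replicate 1 or MCD replicate 2, with adjusted p from 0.0515 to 0.461 (edgeR). DESeq2 called neither (0.0523 and 0.192), and Csf2ra was not called with RLE size factors, with the replicate block or with thinned cells. In endothelial-like cells 4 of 8 rose (30.3%): Il3ra by 1.81 ± 0.25, Csf2rb2 by 1.78 ± 0.36, Csf2rb by 1.26 ± 0.21 and Csf1r by 0.57 ± 0.15. The Csf1r UMIs lay in 114 of 219 and 188 of 382 NCD cells and in 60 of 106 and 134 of 228 MCD cells. Single cells held up to 24 and 14 of them on NCD and up to 69 and 50 on MCD. The part of other cells in these rises was not tested. Without NCD replicate 2 the calls of Csf1r and Csf2rb2 ended in endothelial-like cells. In all, 2 other settings ended that of Csf1r. Over all retained cells 7 rose and Csf1 fell (49.1%). In NK-like cells 1 gene, Csf1r, could be tested and did not pass (20.2%; 8.37% higher). In the cluster led by Retnlg and Ccr3 none of 5 tested passed in edgeR's test (1.19%; 0.395% lower), while 3 had an unadjusted p under the threshold. These were Csf1 (1.95 ± 0.50), Csf1r (1.65 ± 0.41) and Csf2ra (1.27 ± 0.32). Csf1 and Csf2ra were each called under 3 other settings and Csf1r under 2. Csf1 had 4 and 2 UMIs on NCD and 233 and 96 on MCD in this cluster.

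Apart from Csf1 and Flt3l, the ligands of these receptors had few or no UMIs. Il34, the other ligand of Csf1r, and Il3 and Il5 had 0 UMIs in all 9609 kept cells. Csf2, which encodes GM-CSF, had 3 UMIs in NCD replicate 1, 0 in NCD replicate 2, and 3 and 1 in the MCD libraries. Csf3, which encodes G-CSF, had 0 UMIs on NCD, 51 UMIs in 16 cells of MCD replicate 1 and 98 UMIs in 46 cells of MCD replicate 2. Of these, 39 and 19 UMIs lay in Ly6Chi-like monocytes and 6 and 58 in the cluster led by Saa3 and Clec4e. In the pooled classes Csf3 did not pass (adjusted p = 0.0546, edgeR), though it did under 5 other settings, and a count of 0 at the NCD depth allows up to 3 UMIs per library. Flt3l, the ligand of Flt3, had 3 and 14 UMIs on NCD and 99 and 103 on MCD in the pooled classes, with overlapping normalised CPM of 1.72 and 8.42 against 4.95 and 5.01.

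The counts of the following gene lists in the pooled classes stand beside 21.3% of all tested genes called higher, 19.2% called lower and a median log2 difference of 0.04 over all tested genes, and nothing particular to a list is read from them. Of 18 other cytokine receptors tested, 5 rose and 3 fell. Il4ra, the interleukin 4 receptor alpha chain, went from 20.1 and 22.9 to 70.3 and 67.7 normalised CPM (1.69 ± 0.14, adjusted p = 9.09e-05, edgeR). Tnfrsf1a, a TNF receptor, rose by 1.13 ± 0.13 and Il1r2, the interleukin 1 decoy receptor, by 1.12 ± 0.23. Il2rg, the common gamma chain, fell from 119 and 106 to 59.5 and 67.7 normalised CPM (-0.82 ± 0.12), Il13ra1 fell by 0.69 and Il6st, which encodes gp130, by 0.53. The call of Il1r2 ended without NCD replicate 1 and that of Il6st without NCD replicate 2 (adjusted p = 0.0545 and 0.138, edgeR). With library totals as the scale, Il6st and Il13ra1 were not called. The list had a median of 0.20.

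Of 30 tested genes that signal next to the receptors, 12 rose and 7 fell, with a median of 0.16. The kinases Akt1 (1.48 ± 0.15) and Mapk3 (1.09 ± 0.12) and the PI3-kinase regulator Pik3r5 (1.02 ± 0.17) had the greatest rises. The ubiquitin ligase Cblb (-0.76 ± 0.17) and Jak2, the kinase bound to the beta chains (-0.71 ± 0.15), were among those that fell. Jak2 had 88.9 and 64.9 normalised CPM on NCD and 47.7 and 46.7 on MCD, and leaving out NCD replicate 1 raised its adjusted p to 0.0585 (edgeR). Cblb was not called without either NCD library (adjusted p = 0.0601 and 0.0675, edgeR), and neither gene was with library totals.

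Of 18 STAT targets and survival genes tested, 3 rose and 7 fell, with a median of -0.38. Pim3, a survival kinase, went from 32.7 and 24.7 to 112 and 114 normalised CPM (1.97 ± 0.14), Socs3, a feedback inhibitor, from 123 and 108 to 401 and 410 (1.81 ± 0.10), and the cytokine Osm rose by 0.85 ± 0.13. Ccnd1, a cyclin, fell by 2.15, Socs1 by 1.71 and Cish, a STAT5 target, by 1.12. Cish had 15.5 and 9.02 against 4.60 and 6.71 normalised CPM, and its difference was 0.35 in the other direction when the C1q macrophages were left out. Leaving out NCD replicate 1 raised the adjusted p of Cish to 0.331 and that of Ccnd1 to 0.0901 (edgeR). Socs1 was not called when the C1q macrophages were left out (adjusted p = 0.144, edgeR).

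Of 12 tested transcription factors known to act on these receptor genes, 7 rose and 4 fell, with a median of 0.62. Cebpa rose by 1.45 ± 0.12 and Cebpb by 0.99 ± 0.10. Maf fell by 1.29, Klf4 by 0.63 and Fli1 by 0.50, and the call of Fli1 was lost without either NCD library (adjusted p = 0.0508 and 0.0649, edgeR). With library totals neither Klf4 nor Fli1 was called. Spi1, which encodes PU.1 and was chosen after its values were seen, had 304 and 314 normalised CPM on NCD and 533 and 520 on MCD (0.77 ± 0.09). Of 6 tested genes of receptor shedding 1 rose, Rhbdf2, a partner of the protease ADAM17 (0.69 ± 0.15; adjusted p = 0.0503 without NCD replicate 1, edgeR), and 3 fell. These were Timp3 (-2.65 ± 0.63), Mmp9 (-2.35 ± 0.76) and Adam10, a membrane protease (-0.79 ± 0.10). Timp3, a metalloprotease inhibitor, was lost without NCD replicate 2 (adjusted p = 0.148) and Mmp9, with 5, 2, 6 and 10 UMIs, without either NCD library (adjusted p = 0.421 and 0.0774, edgeR).

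The genes whose levels ran most like those of a receptor were found over 51 sums of 17 cell groups by library, as Pearson's r of log2(CPM + 10) among 5531 genes. The sums share libraries and depth. For Csf1r these were Tpd52 (r = 0.92), Apoe (0.91), Ctsb (0.90) and Cln8 (0.90), and for Csf3r they were Tpd52 (0.91), Klra2 (0.88), Csf1r (0.88) and AI607873 (0.88). Csf2rb was best matched by Ier3 (0.76), Lilrb4a (0.75), Zfp516 (0.74) and Lilr4b (0.73), and Flt3 by Pvrl1 (0.79), Avpi1 (0.79), Shtn1 (0.77) and Zbtb18 (0.70). Among the 8 genes, Csf1r ran with Csf2ra (0.86) and Csf3r (0.88) and not with Flt3 (-0.06), and Csf2rb ran with Csf2rb2 (0.67).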

How the data were processed

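UMI counts for each gene in each barcode were deposited as whole numbers. The authors' tool was Cell Ranger, version 3.0.2 per the file headers, with the build mm10, per the submitters' processing notes. Its cell calling settings are not stated there. The 8 members and all gene lists were chosen with earlier results of these data known.

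A barcode was retained if it had 200 genes or more and no more than 10% mitochondrial UMIs. Counts of 2000 variable genes, without the 8 members, gave 30 principal components, 15 neighbours and Leiden clusters at resolution 1.0 (leidenalg 0.10.2). Clusters were named from 24 marker lists, which needed at least 3 markers among a cluster's top 50 genes by CPM ratio and the most among its top 10. The rule for ties was settled after the clusters were seen. No doublet caller was run, so doublets must be taken as present.

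UMIs were summed per class and library and tested with edgeR 4.0.16 (quasi-likelihood, TMM, filterByExpr, Benjamini-Hochberg, threshold 0.05), a procedure also tested on simulated data. Comparisons in dendritic, endothelial-like and NK-like cells and in the cluster led by Retnlg were added after the clusters were seen. Alternatives used DESeq2 1.42.0, other scalings and filters, thinned cells, other clusterings and omitted libraries. Named pathway genes are the 3 called genes of largest difference per list and direction, and fixed ligands. Some genes that this rule names are not reported here. Shares have exact Clopper-Pearson 95% intervals, and intervals and floors cover counting error only. With 2 libraries per diet no exact permutation test can pass the threshold, so none was run.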

Additional observations from a re-analysis of the deposited data

Results flagged for a closer look

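The diet difference of Csf1r was larger in C1q macrophages than in Ly6Chi-like monocytes by 0.52 on the log2 scale, by the test of the difference itself (edgeR, adjusted p = 0.0086). It was not called without NCD replicate 1, NCD replicate 2 or MCD replicate 1 (adjusted p = 0.0715, 0.104 and 0.0521, edgeR), nor with thinned cells (0.23). The diet difference of Csf1 was larger by 4.03 between the same classes (edgeR, adjusted p = 0.00036), and not called without NCD replicate 1 or NCD replicate 2 (0.0819 and 0.123, edgeR). Different clusters held the C1q macrophages of the 2 diets.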

How the results depend on the processing

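Values here are log2 differences (MCD over NCD) unless named otherwise. In the 3 pooled classes Csf2ra, Csf2rb and Il3ra passed under all 15 other settings, some of which changed the cells pooled. Thinned to 1000 UMIs, Csf1r was 0.15, Flt3 0.44 and Csf3r -0.032, and 3 members and 2490 genes were called instead of 5 and 4446. Leaving out 1 library gave 0.24 to 0.41 for Csf1r, 0.32 to 0.84 for Csf2rb2, -0.045 to 0.14 for Csf3r, 0.60 to 0.86 for Flt3 and 2959 to 4128 called genes. Library totals gave 0.95 for Csf2rb2, 0.48 for Csf3r, 0.16 for Csf1 and 0.39 for Flt3l. Leiden resolution 0.5 gave 0.083 for Csf1r, -0.016 for Csf2rb2, -1.99 for Csf1 and 0.079 for Flt3l. No C1q macrophages were named there, and 1 and 1 MCD Ly6Clo-like cells stood against 160 and 170 NCD ones. With up to 20% mitochondrial UMIs, Csf2rb2 was 1.07, Csf3r -0.076 and Cish 0.084, and only 4 and 1 NCD C1q macrophages remained. The following alternatives were chosen after seeing the data. Without the C1q macrophages Csf1r was 0.12, Csf1 -2.02, Flt3l 0.0058 and Cish 0.35, and with 3 unnamed clusters added Csf2rb2 was 0.76. Without a filter Flt3l was 0.084, and leaving out 1 library gave it -0.74 to 1.54. The cause of these shifts was not tested.

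Replicate numbers in the labels were not taken as pairs. Deviations of same-numbered libraries had r = 0.0037 over 10986 genes, so no shared shift was visible. With 2 libraries per diet this cannot decide whether same-numbered libraries were prepared together. With the replicate block Csf2rb2 was called at 0.55 and Flt3l was 0.035.

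Other directions turned for uncalled values. With thinned cells Csf3r was -0.081 in Ly6Chi-like, -0.28 in Ly6Clo-like and 0.27 in C1q cells. Library totals gave 0.033 for Csf2rb2 in Ly6Clo-like, 0.24 for Csf3r and 0.36 for Flt3 in C1q, 0.14 for Flt3 in migratory dendritic-like and 0.072 for Csf3r in endothelial-like cells. Without a filter Flt3 was 0.040 in C1q and 0.19 in migratory dendritic-like cells. Leaving out 1 library gave ranges of -0.070 to 0.84 for Csf2rb2 and -0.13 to 0.22 for Csf3r in Ly6Chi-like cells, and -0.59 to 0.31 for Flt3 in C1q cells. In migratory dendritic-like cells it gave -1.09 to 0.47 for Csf1r and -0.15 to 0.30 for Flt3, and in endothelial-like cells -0.38 to 0.25 for Csf3r and -0.66 to 0.16 for Flt3.

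The term between the monocyte classes was -0.13 for Csf1r, -0.086 for Csf2ra and -0.16 for Flt3 with library totals, and -0.18 for Csf1r, 0.19 for Csf2rb, -0.30 for Csf3r and -1.24 for Flt3 with thinned cells. Leaving out 1 library moved it from -0.21 to 0.046 for Csf2rb, -0.13 to 7.77 for Il3ra and -0.00014 to 0.15 for Flt3. The term between C1q macrophages and Ly6Chi-like monocytes was 0.056 for Csf2rb and 0.32 for Csf3r with thinned cells, and ran from -0.022 to 0.83 for Csf2rb2 and -0.43 to 0.052 for Csf3r without 1 library. Without thinning, the share of cells with a UMI differed by 13.1 points for Flt3 in C1q macrophages and 1.40 points for Csf1 in Ly6Chi-like monocytes, opposite to the thinned shares.

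Over all alternatives, called genes ran from 1509 to 4365 in Ly6Chi-like, 776 to 2526 in Ly6Clo-like and 979 to 3446 in C1q cells, from 160 to 383 for the first term and from 42 to 401 for the second. The alternative without lipid-associated macrophages was not run, since no cluster took that name. In the main MCD cluster of C1q macrophages that marker list came close to the C1q list. NCD depth limits Il3ra, Csf2rb2, Flt3 and Csf1 most, with 0 to 22 UMIs per library in each of the 3 classes.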
